A study of Caenorhabditis elegans with 12 samples.

Results

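The genes described here are 10 genes of the Ras and MAP kinase pathway of the nematode Caenorhabditis elegans, out of 19971 protein-coding genes on the 6 nuclear chromosomes. They are the ligand gene lin-3, the receptor gene let-23, the Ras gene let-60, the scaffold gene ksr-1, the kinase genes lin-45, mek-2 and mpk-1, and the nuclear factor genes lin-31, eor-1 and eor-2. They were chosen by name for their place in the pathway, and eor-1 was chosen because it lies beside a window that stands near the top of the deposited lists. The windows of these lists thus entered the choice, and the counts below are descriptions with no test.

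The series mapped genome binding by chromatin immunoprecipitation and sequencing in whole-worm extracts. Worms of the wild-type strain N2 and of strain FQ237, in which the transcription factor ETS-5 carries green fluorescent protein, were grown on Escherichia coli OP50, and an antibody against the fluorescent protein was used for both strains. Each strain gave 3 inputs and 3 precipitates, 12 samples in all, and the results below come from the window lists of the 3 precipitates of FQ237. The 9 samples of the other groups were not analysed here, so no window below was set here against an untagged strain or an input. Whether the authors used such a control when the windows were called is not known. The labels give no promoter or copy number for the fusion, no stage of the worms and no statement that the 3 replicates were separate cultures. A whole-worm extract mixes all cell types, and a window does not show in which cells the fusion protein lay there.

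In C. elegans the pathway is best known from the vulva. The anchor cell secretes LIN-3, a protein of the epidermal growth factor family, which binds the receptor LET-23 on precursor cells of the vulva. The signal then passes through the small GTPase LET-60 (Ras) to the kinases LIN-45 (Raf), MEK-2 and MPK-1, with KSR-1 as a scaffold of the kinases. In the nucleus it ends on factors that include LIN-1, itself a member of the ETS family, the forkhead protein LIN-31, and EOR-1 and EOR-2, which act together as positive effectors and, in genetic tests, in parallel to LIN-1. EOR-1 is a zinc finger protein with a BTB domain, related to the human factor PLZF. The same pathway also specifies the excretory duct cell and acts in the germ line, where MPK-1 is needed for meiosis.

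The lists hold 3811, 2915 and 3697 windows for replicates 1, 2 and 3, each window 400 bp wide, with no heights, scores or read counts. Sequencing depth is therefore unknown. The files do not say what the order of the lines stands for, and below a line number tells only the place in a list. The tagged gene ets-5 held the first line of each list. Windows that overlapped by at least 1 bp between lists were merged, and a region with a window of all 3 lists is called shared. There were 1788 shared regions. Positions are those of the files, counted from 1, in a genome build that no source used here names. Gene spans come from the RefSeq table of assembly WBcel235. That table has no strand, so the 5' and 3' ends of a gene could not be told apart, and it has no exons. The windows and the table may follow different builds, so distances to gene ends may be off by an amount that is not known. A move of 100 bp to either side was tried below.

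A window was counted at a gene when its middle lay inside the gene span or within 2000 bp of either end. In each of the 3 lists 6 of the 10 genes had such a window, and they were the same genes, namely let-23, let-60, ksr-1, mpk-1, eor-1 and eor-2. The genes lin-3, lin-45, mek-2 and lin-31 had none in any list. Among all protein-coding genes 16.8% had a window of replicate 1, 14.1% one of replicate 2 and 18.0% one of replicate 3. A shared region lay at the same 6 genes and at 9.21% of all protein-coding genes. These shares grow with gene length, and the 10 genes are long, from 2862 to 11345 bp with a median of 7041 bp, against a median of 2006 bp for all protein-coding genes. A shared region lay at 5.65% of genes under 2000 bp, 8.73% of those from 2000 to under 5000 bp, 17.9% of those from 5000 to under 10000 bp and 27.3% of those from 10000 to under 20000 bp. Of the genes at least as long as the median member, 44.7%, 36.6% and 42.4% had a window of replicates 1, 2 and 3, and 25.9% had a shared region. The 5 members of that length include 3 with a shared region, namely let-23, ksr-1 and mpk-1.

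**Figure D1:**
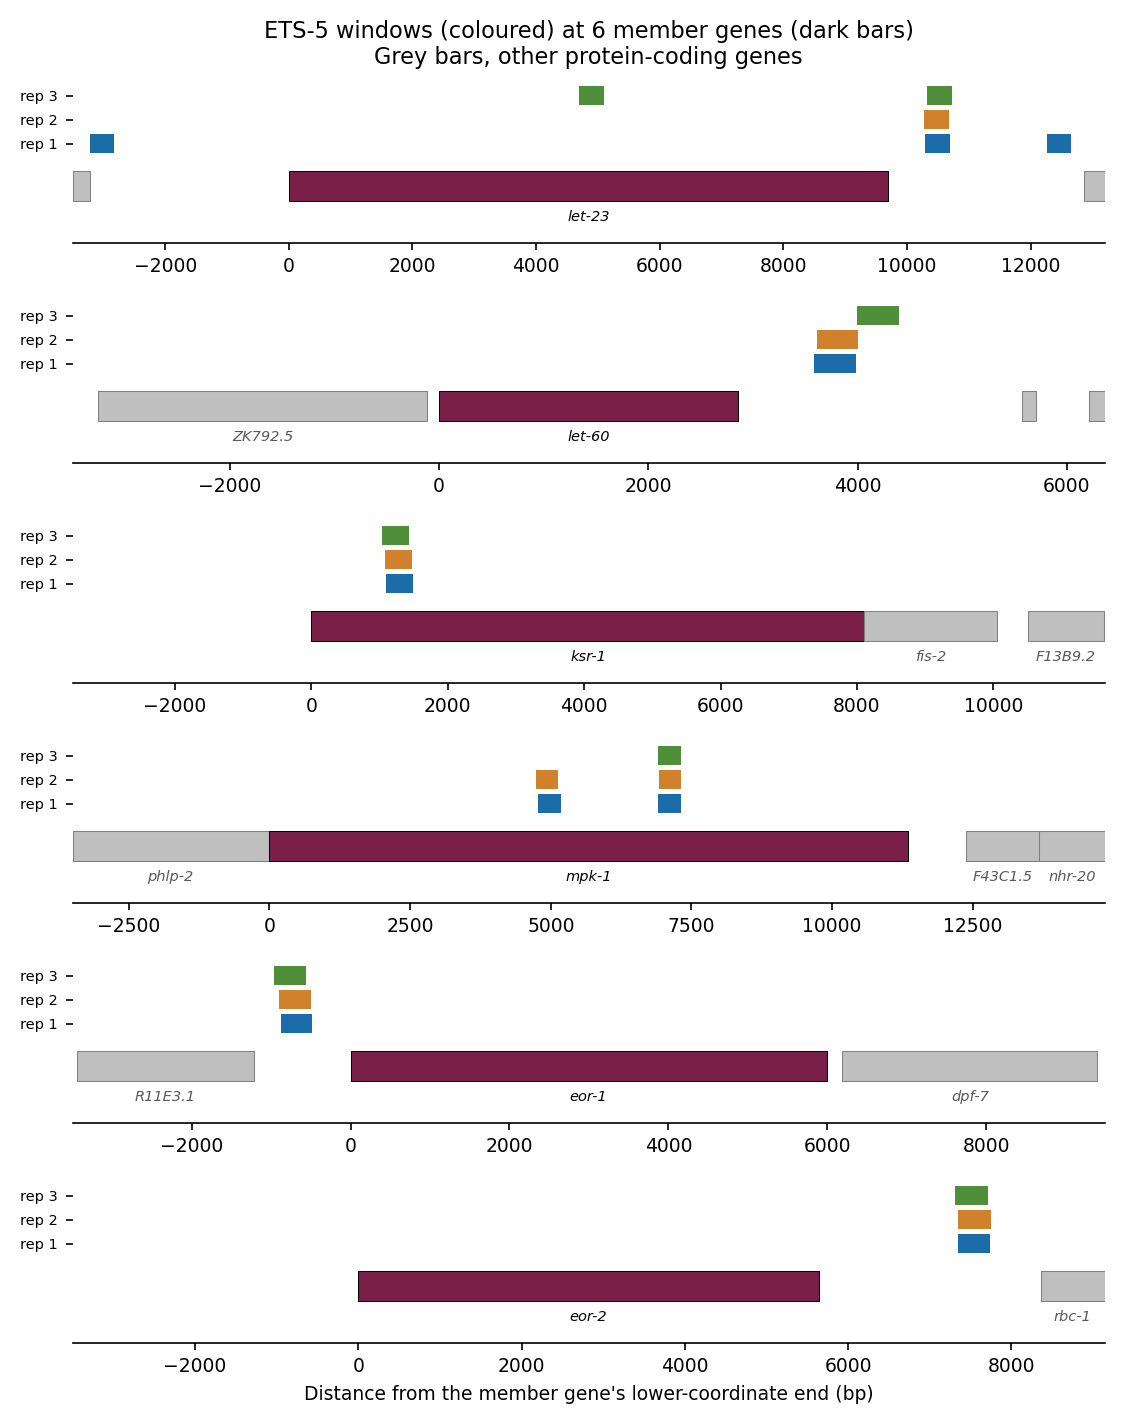
Windows of the ETS-5 lists at the 6 genes that had any, 1 panel a gene, drawn to scale in bp from the end of the gene with the lower coordinate. Dark bars are the member genes, grey bars are other protein-coding genes, and coloured bars are the windows of replicates 1, 2 and 3. At ksr-1 and mpk-1 the shared region lies inside the gene, and at the other 4 genes it lies outside.

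Upstream in the pathway, the ligand and its receptor differed. The lin-3 gene had no window within 2000 bp. The nearest shared region lay 7455 bp away, on chromosome IV from 11071023 to 11071424, at lines 6, 6 and 13 of replicates 1, 2 and 3. This region is nearer to ttr-17, a gene of the transthyretin-like family, than to lin-3. A further shared region stood 9102 bp from lin-3, at lines 147, 831 and 53. The first of these regions thus stood near the top of all 3 lists, and the further one did so in replicates 1 and 3 only. A region 11544 bp from lin-3 held windows of replicates 1 and 3, at lines 1088 and 144, and none of replicate 2. None of these regions lay within the distance that was counted. Of all protein-coding genes 21.6% had a shared region nearer than that of lin-3.

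At let-23, the gene of the epidermal growth factor receptor, a shared region lay on chromosome II from 9207789 to 9208238, 796 bp outside the gene. Replicates 1, 2 and 3 had it at lines 149, 279 and 1022, which is 3.91%, 9.57% and 27.6% of the way down the lists. The windows of replicates 1 and 2 thus fell in the first 10% of their lists and that of replicate 3 did not. The region lies in a gap of 3162 bp between let-23 and ZK1067.4, on the let-23 side of its middle. Replicate 3 had a second window, inside let-23 from 9202212 to 9202611, at line 3521, and neither other list had a window there. Replicate 1 alone had windows in the gaps on either side of let-23, 2762 bp and 3022 bp from the gene, and these are the nearest ones outside the limit of 2000 bp for any member.

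At let-60, the Ras gene, the lists placed their windows less closely. Replicate 1 had a window on chromosome IV from 11691811 to 11692210 and replicate 2 one from 11691836 to 11692235, with middles 25 bp apart. The window of replicate 3, from 11692222 to 11692621, lay 411 bp from that of replicate 1 and 386 bp from that of replicate 2. It overlaps the window of replicate 2 by 14 bp and does not touch that of replicate 1. The 3 windows stood at lines 2402, 2345 and 2763, which is 63.0%, 80.4% and 74.7% of the way down the lists. The windows lie in a gap of 2704 bp between let-60 and ZK792.12. The window of replicate 3 overlaps the non-coding RNA gene ZK792.10, and those of replicates 1 and 2 do not. The let-60 region stopped being shared when windows had to overlap by 100 bp or when replicate 2 was left out. Its windows thus share one place in replicates 1 and 2, with that of replicate 3 beside it.

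The kinases and their scaffold fell into genes with a window inside and genes with none nearby. KSR-1 is a kinase suppressor of Ras, the scaffold that holds Raf and its substrates together. Its gene, ksr-1, had a shared region inside, on chromosome X from 8276206 to 8276664, whose windows lay 1295, 1273 and 1236 bp from the end with the lower coordinate. Replicates 1, 2 and 3 had it at lines 238, 69 and 1916. That is 6.25%, 2.37% and 51.8% of the way down the lists, so that replicate 3 stands apart. No other protein-coding gene lies within 2000 bp of these windows.

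The MAP kinase gene mpk-1, at 11345 bp the longest of the 10, had a shared region inside on chromosome III from 4223674 to 4224083. The windows stood at lines 501, 139 and 698 of replicates 1, 2 and 3, which is 13.1%, 4.77% and 18.9% of the way down. The middles of these windows lay within 10 bp of each other over all 3 lists. A further region inside mpk-1, from 4221494 to 4221943, held windows of replicates 1 and 2, at lines 2834 and 1872, and none of replicate 3. Among the 10 genes mpk-1 alone had 2 windows in more than 1 list.

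The Raf gene lin-45 and the MAP kinase kinase gene mek-2 had no window within 2000 bp. The window nearest to lin-45 lay 7890, 7968 and 8071 bp away in replicates 1, 2 and 3, and belongs to a shared region at lines 546, 477 and 509 that is nearest to usp-4. For mek-2 the nearest window was 5772 bp away in replicate 1, 10779 bp in replicate 2 and 6005 bp in replicate 3, and the nearest shared region lay 10758 bp away. Of all protein-coding genes, 22.7% had a shared region nearer than that of lin-45, and 28.3% had one nearer than that of mek-2. The distances of both genes thus lie within the nearer part of the genome-wide range, although neither gene was counted. Both genes are long, longer than 88.5% (lin-45) and 92.7% (mek-2) of all genes. Their distances were not set against genes of like length.

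Of the 3 nuclear factor genes, eor-1 had the windows closest to the top of the lists. The shared region lies on chromosome IV from 4792233 to 4792711. The windows of replicates 1, 2 and 3 stood at lines 12, 71 and 78, which is 0.315%, 2.44% and 2.11% of the way down. By the mean of these shares the region was number 10 of the 1788 shared regions. Among the 10 genes, eor-1 alone had a window in the first 10% of lines of all 3 lists, as did 0.396% of all protein-coding genes. This place in the lists is why eor-1 was chosen and is given as a description.

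The eor-1 region lies between genes. Its windows were 683, 696 and 762 bp outside eor-1, a mean of 714 ± 42.4 bp (SD, n = 3), and they sit in a gap of 1210 bp between eor-1 and R11E3.1. They were 528, 515 and 449 bp from R11E3.1, so that in each list the window was nearer to R11E3.1 than to eor-1. This order is within the doubt about the builds. With the windows moved 100 bp toward eor-1 the distances were 583, 596 and 662 bp to eor-1 and 628, 615 and 549 bp to R11E3.1, so that eor-1 was then the nearer gene in replicates 1 and 2. On the other side of eor-1 the gap to dpf-7 measures 196 bp and held no window. The lists thus do not assign the region to eor-1, and it was counted at both genes. Farther out, replicates 1 and 2 shared a region 11888 bp from eor-1, at lines 1247 and 1768, where replicate 3 had none.

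The windows counted at eor-2 stood near the bottom of the lists. EOR-2 is the partner protein of EOR-1. The shared region lies on chromosome X from 14610325 to 14610764, at lines 2441, 2507 and 3548 of replicates 1, 2 and 3, which is 64.1%, 86.0% and 96.0% of the way down. Its windows lay 1898, 1904 and 1864 bp outside eor-2, just within the limit, and 816, 810 and 850 bp from rbc-1, whose product is a rabconnectin-like protein. All 3 windows overlap the non-coding RNA genes F54E4.11 and F54E4.14. The region is thus nearer to rbc-1 than to eor-2 in every list, and a move of 100 bp to either side would not change that. With the positions as deposited, both partners of the EOR pair were counted through a region whose nearest protein-coding gene is another one.

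The forkhead gene lin-31, whose product is a target of MPK-1 in vulval cells, had no window within 20000 bp. The nearest windows lay 23615, 22062 and 23644 bp away in replicates 1, 2 and 3. Of all protein-coding genes 49.9% had a shared region nearer than that of lin-31, so that lin-31 stands near the middle of all genes.

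**Figure D2:**
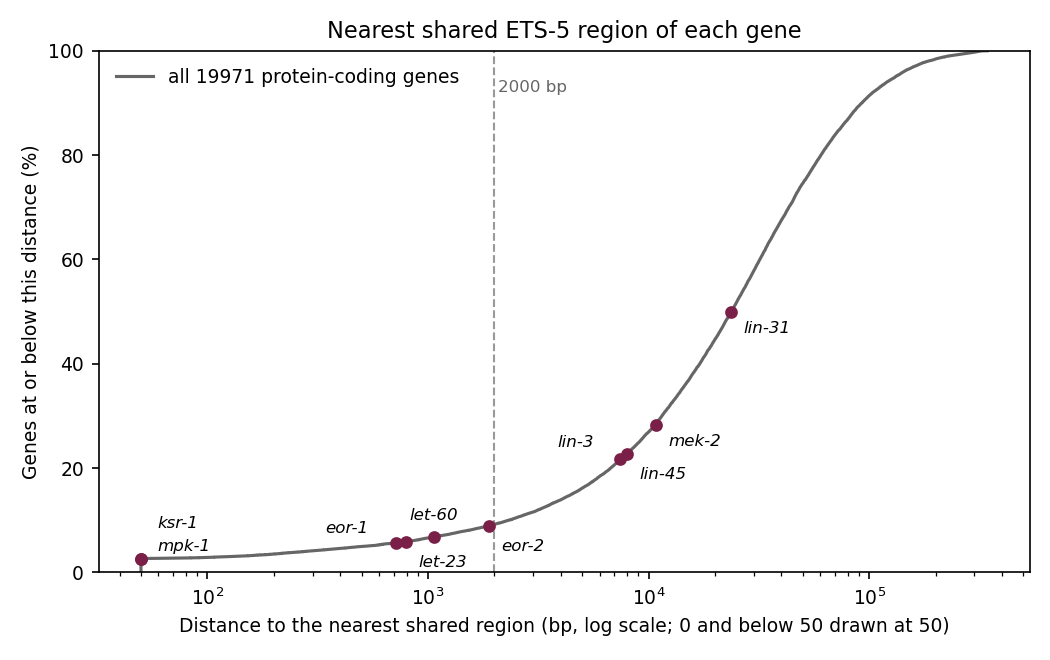
Distance from each gene to the middle of the nearest shared region, in bp on a log scale, against the percentage of all 19971 protein-coding genes at or below that distance (grey line). Dots mark the 10 genes. The dashed line is at 2000 bp, and 6 dots lie to its left, with lin-3, lin-45 and mek-2 between 7455 and 10758 bp and lin-31 farther out.

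The 6 genes spread over the whole length of the lists. As a mean over replicates of the share of the list above the best window, eor-1 stood at 1.62% ± 1.14, mpk-1 at 12.3% ± 7.10, let-23 at 13.7% ± 12.4, ksr-1 at 20.1% ± 27.5, let-60 at 72.7% ± 8.88 and eor-2 at 82.0% ± 16.3 (SD, n = 3 each). The values of mpk-1, let-23 and ksr-1 do not differ beyond their spread, and neither do those of let-60 and eor-2. In every list the best windows of eor-1, mpk-1, let-23 and ksr-1 stood above those of let-60 and eor-2. The lead among the first 4 changed, with eor-1 first in replicates 1 and 3 and ksr-1 first in replicate 2, at line 69 against 71 for eor-1. The mean of ksr-1 rests on replicate 3, and without that replicate it was 4.31%. That of let-23 was 6.74% without replicate 3.

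**Figure D3:**
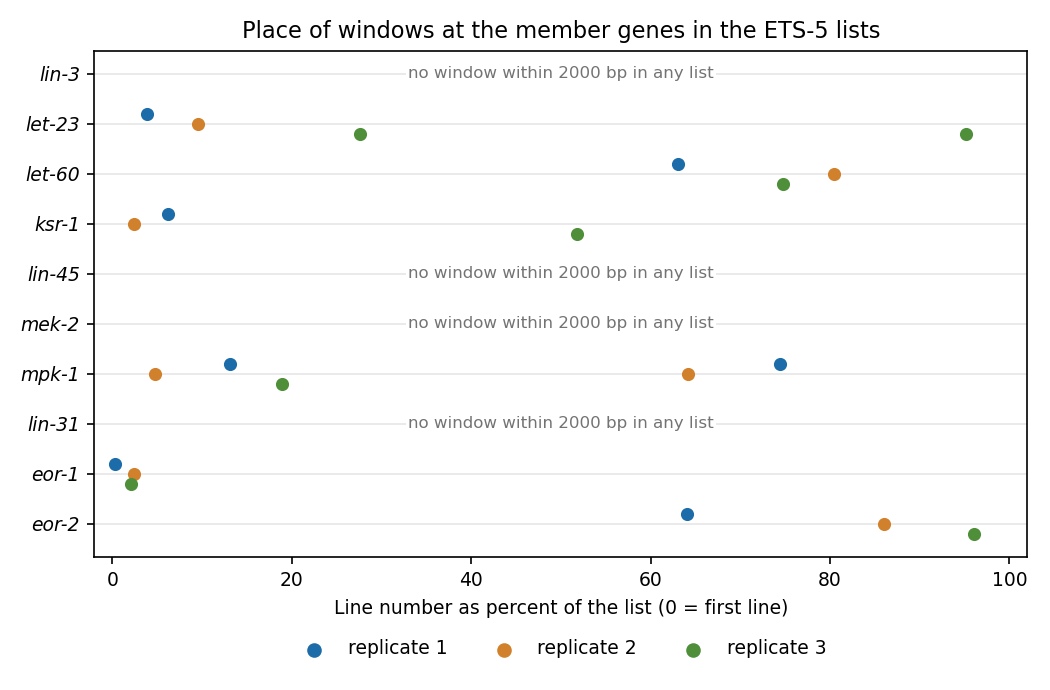
Line number of every window counted at the 10 genes, as a percentage of the length of its list, with 1 row a gene in pathway order and 1 colour a replicate. The dots of eor-1 lie together at the left edge, those of let-60 and eor-2 lie beyond 60%, and the dot of replicate 3 for ksr-1 lies at 51.8%.

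The first 10% of the lines held windows at 3 of the 10 genes in replicate 1 (eor-1, let-23 and ksr-1), at 4 in replicate 2 (the same and mpk-1) and at 1 in replicate 3 (eor-1). Over all protein-coding genes 1.88%, 1.42% and 2.39% had a window in the first 10% of lines of these lists. The gene eor-1 was chosen for its place in the lists, so its part in each of these counts was fixed by the choice. The shares are over genes of all lengths, and the members are longer than most genes, so no excess is read from these counts. Replicate 3 had 6 members with a window, as the other lists did, and the same number of windows at members, 7 in each list. As a share of the list, the best windows stood lower in replicate 3 than in replicates 1 and 2 at let-23, ksr-1, mpk-1 and eor-2. At eor-1 and let-60 they did not, although by line number alone replicate 3 stood lowest at these genes too. The number of windows at members was the same in each list.

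How far apart the lists placed a window is a measure that the choice of genes did not use. Over all 1788 shared regions the middles of the windows spread over a median of 47 bp, with quartiles of 26.8 and 83 bp. The spread was 10 bp at mpk-1, 40 bp at eor-2, 50 bp at let-23, 59 bp at ksr-1, 79 bp at eor-1 and 411 bp at let-60. Of the shared regions 7.10% spread less than that of mpk-1, 72.8% less than that of eor-1 and 99.0% less than that of let-60. The region at the top of the lists was thus not the one placed most closely, and the spread at let-60 was the widest of the 6, while that at mpk-1 lay below the lower quartile.

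**Figure D4:**
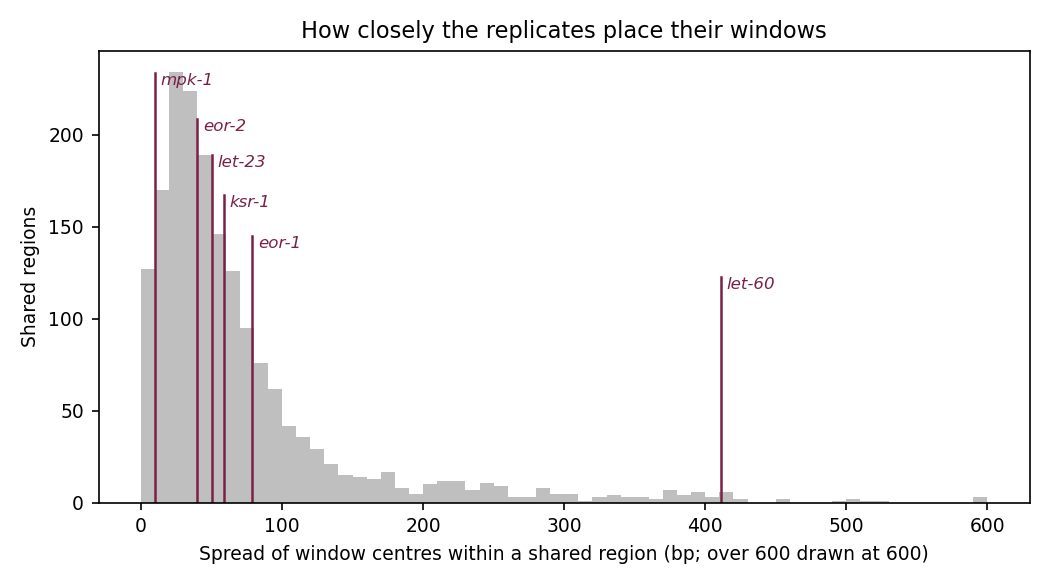
Spread of the window middles within each shared region, in bp, as a histogram over the 1788 shared regions, with lines at the regions of the 6 genes. The lines of mpk-1, eor-2, let-23, ksr-1 and eor-1 lie between 10 and 79 bp, within the bulk, and that of let-60 lies at 411 bp.

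Where a shared region lay relative to the gene also varied. Regions centred inside the gene were found at ksr-1 and mpk-1, and 2.56% of all protein-coding genes had one. The 2 genes are longer than 92.8% (ksr-1) and 96.3% (mpk-1) of all genes. The share for genes of like length was not computed, so the count is not read as an excess. Regions centred outside but within 2000 bp, with none inside, were found at let-23, let-60, eor-1 and eor-2, and 6.65% of all protein-coding genes had that pattern. At eor-1 and let-60 the region lies in the wider of the 2 gaps beside the gene, since the gaps on the other side measure 196 and 108 bp. At let-23 and eor-2 it lies in the narrower one. When each region was given to its nearest protein-coding gene alone, let-23, let-60, ksr-1 and mpk-1 were counted and eor-1 and eor-2 were not. Of all protein-coding genes 6.24% were counted in that way. With a limit of 1000 bp, let-60 and eor-2 were not counted, and 6.59% of all protein-coding genes were.

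A list of 42 further genes of the pathway was drawn up by role, and 40 of them were found by name in the gene table, with a median length of 6380 bp. A shared region lay at 11 of the 40 (27.5%), against 9.21% of all protein-coding genes. Of the 18 at least as long as the median member, 6 had one (33.3%), against 25.9% of all genes of that length. A window of at least 1 list lay at 25 of the 40, against 23.8% of all protein-coding genes, and 15 had none. Among these longer genes the share thus lay nearer to its background, but the cut sets only a lower limit on length. By length class, 0 of 2 pathway genes under 2000 bp had a shared region, against 5.65% of all genes. From 2000 to under 5000 bp it was 2 of 13 against 8.73%, and from 5000 to under 10000 bp 4 of 14 against 17.9%. From 10000 to under 20000 bp it was 1 of 5 against 27.3%, and from 20000 bp 4 of 6 against 40.4%. The part that length plays was not tested.

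The role with the most counted genes was that of proteins that act beside the kinases. Of 7 genes of kinase scaffolds and phosphatases 4 had a shared region, namely cnk-1, sur-6, let-92 and par-1, against 9.21% of all protein-coding genes. In the length class of cnk-1 (7324 bp) 17.9% of genes had one. In that of sur-6 (3779 bp) and let-92 (2019 bp) it was 8.73%. The role is described because its count was the highest, and this was not tested. CNK-1 is a scaffold that works with KSR and Raf, LET-92 and SUR-6 are the catalytic and a regulatory subunit of protein phosphatase 2A, and PAR-1 is a polarity kinase. The region of cnk-1, on chromosome III from 10270630 to 10271064 and 414 bp outside the gene, stood at lines 1098, 800 and 151. The gene par-1 had 3 shared regions, all inside, and the leading one by mean share stood at lines 550, 244 and 1828. It is 33335 bp long, and of genes of 20000 bp or more 40.4% had a shared region. The region of let-92 is nearer to ech-2 than to let-92, and stood at lines 1037, 707 and 756. That of sur-6 stood low, at lines 3142, 2277 and 2667.

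Before and around Ras, sos-1, the gene of the Ras exchange factor, had a shared region inside at lines 1860, 1579 and 1200, and egl-15, the gene of a fibroblast growth factor receptor that signals through the same cascade, had one 1217 bp outside at lines 711, 1180 and 2899. The gene of the GTPase RAL-1, ral-1, had one at lines 2612, 1073 and 2544. By role, 2 of 8 genes of adaptors and exchange and 1 of 11 of ligands and receptor handling had one, against 9.21% of all protein-coding genes. At 32348 bp sos-1 falls in the class of 20000 bp or more, where 40.4% had a shared region. In the class of egl-15 (7022 bp) and ral-1 (6407 bp) it was 17.9%. Of the 3 genes listed as GTPase activators, which switch Ras-type proteins off, gap-2 had a region at lines 995, 1130 and 1976 and gap-3 one at lines 1510, 1484 and 645. The third, gap-1, had no window in any list. These genes differ in length, with 43985 bp for gap-2, 22280 bp for gap-3 and 15625 bp for gap-1, and the first 2 fall in the class of 20000 bp or more, where 40.4% of genes had a shared region, against 27.3% in the class of gap-1. At the adaptor gene sem-5 only replicate 1 had a window, on line 2820. Of the genes lin-2, lin-7 and lin-10, whose products place LET-23 in the membrane, none had a shared region, and each had a window in 1 or 2 lists. A gene without a shared region is the common case, since 9.21% of all protein-coding genes had one. In the length classes of lin-2 (14525 bp), lin-7 (3563 bp) and lin-10 (9571 bp) the share was 27.3%, 8.73% and 17.9%. Nothing is read from these genes as a group.

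After MPK-1, the kinase gene mnk-1 had 3 shared regions inside and 4, 3 and 8 windows in replicates 1, 2 and 3. In replicate 3 only 3 protein-coding genes had 8 or more windows. At 12624 bp mnk-1 is longer than 97.1% of all genes, and 27.3% of genes in its length class had a shared region. Its number of windows was not set against genes of like length. Its best windows stood at lines 1539, 2446 and 167, so that its mean share of 42.9% of the list has an SD of 39.8 (n = 3), larger than that of any member. The kinase gene rskn-1 had 2 windows in replicates 1 and 2 and none in replicate 3. The zinc transporter gene cdf-1, which promotes Ras signalling, had a region low in all lists, at lines 2911, 2463 and 3496.

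No window of any list lay inside or within 2000 bp of lin-1, lin-39 or lin-25, genes of nuclear proteins, or of sur-5, which was listed with them but encodes a synthetase-like protein that acts on Ras signalling. Over all protein-coding genes a gene without a window is the common case, since 23.8% had a window of at least 1 list. Long genes have one more often. Of the genes at least as long as the median member, 44.7%, 36.6% and 42.4% had a window of replicates 1, 2 and 3. The genes lin-1, lin-39 and lin-25 are of that length. In the class of lin-1, of 20000 bp or more, 40.4% had a shared region. Nothing is read from these 4 genes as a group. LIN-1 is the ETS factor that the pathway acts on, and its gene of 24426 bp had its nearest window 23281 bp away in replicate 1, and 5402 and 5398 bp away in replicates 2 and 3. LIN-39 is the Hox protein of the vulval precursor cells, and the nearest windows lay 27156, 30098 and 30090 bp from its gene. A missing window does not say that ETS-5 does not bind there, since depth and threshold of the lists are unknown.

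The genes whose places in the 3 lists were most like those of eor-1 were found among 1925 other protein-coding genes with a window in every list. Likeness was the sum over the lists of the difference in line number as a percentage of the list. R11E3.1 had a sum of 0, because it shares the region. Next came cnp-2, at lines 21, 77 and 80 with a sum of 0.496, and qua-1, at lines 10, 67 and 120 with a sum of 1.33. They were followed by clec-80, at lines 9, 84 and 24, and F53F8.5, at lines 7, 24 and 88, with sums of 1.99 and 2.01. None of these is a gene of the pathway lists.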

How the data were processed

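For each ETS-5 precipitate the authors deposited a list of 400 bp windows with chromosome, start and end and no other column. The submitters' processing notes name Bowtie2 and MACS2. No source used here gives versions, settings, build, threshold or control. The other 9 samples were not analysed here.

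The 10 members, the list of 42 pathway genes and all settings were chosen with earlier results of these data known. Named genes are the members, other protein-coding genes within 2000 bp of a member's window, pathway genes with a shared region, and the 5 genes most like eor-1 in line order. Other genes of the pathway list are named to complete counts, ttr-17, usp-4 and ech-2 as the nearest gene of a region, ZK1067.4 and dpf-7 as the far side of a gap, and non-coding genes that a window overlaps. These were chosen after their values were seen. The listed names lst-3 and mdt-23 were not matched.

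Starts were raised by 1, assuming 0-based starts in the files. At transfer RNA genes, windows of replicate 3 lay a median of -42.2 bp from the gene's middle (76 pairs within 300 bp), and those of replicates 1 and 2 41 and -129 bp (19 and 14 pairs). An offset above 300 bp could not be seen in this way, so these values set no bound on a difference between builds. A region's middle is the mean of its windows' middles. Counts were checked with bedtools 2.31.1 and on simulated lists, where 100 of 100 planted regions were recovered. The planted windows overlapped widely and lay within the counted distance, so this checks the code alone. Windows that barely overlap, as at let-60, were not covered. Python 3.11.15 and numpy 2.4.6 were used. The planned search for ETS motifs was not run, since it needs sequence, and no sequence is shown.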

Additional observations from a re-analysis of the deposited data

How the results depend on the processing

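Of the 10 genes, 5 to 6 had a shared region when each replicate was left out in turn, and 13 to 15 of the 40 further pathway genes, against 10.1% to 12.1% of all protein-coding genes. Inside the gene span alone the numbers were 2 and 6 against 2.56%, and with the first 50% of each list's lines 3 (let-23, mpk-1 and eor-1) and 3 against 4.30%. The shares of all protein-coding genes given here are over genes of all lengths and were not matched to the members or pathway genes. With regions of at least 2 lists 19 pathway genes were counted against 15.1%, and 16.2% of all genes at 5000 bp. A window inside the span was found at 2, 2 and 3 of the 10 genes in replicates 1, 2 and 3, and in the first 50% of lines replicate 3 had 3 members. For these counts in single lists the share of all protein-coding genes was not computed, so nothing is read from them. Moving the windows by 100 bp to either side gave a mean distance to eor-1 of 814 and 614 bp and left the count of members at 6. The genes lin-3, lin-45, mek-2 and lin-31 had no shared region under any of these settings. Leaving out replicates for the line order was added after the data were seen. No paired analysis was possible because lists of 1 group alone were used. The files carry no depth, so a missing window cannot be read as missing binding.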
